A study of Rattus norvegicus with 8 samples.

Results

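Olfactory receptor probes were followed here in 3 rat tissues outside the nose. The members were all non-control array features whose RefSeq transcript accession lay from NM_001000700 to NM_001000999, a numbered block that holds rat olfactory receptors. The rule found 261 features of 43379 non-control features, each a different probe for a different transcript, and it used no measured value. A current symbol was found in RefSeq for 259 of the 261 transcripts, and each of these symbols was that of an olfactory receptor. By symbol, 14 belonged to the class I families (51 and above), 233 to class II families, and 14 carried no family number.

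Olfactory receptors are G protein-coupled receptors that bind odorants in the cilia of olfactory sensory neurons in the nose. There the bound receptor acts through the G protein subunit encoded by Gnal, the adenylyl cyclase encoded by Adcy3 and a cyclic nucleotide-gated channel built from the products of Cnga2, Cnga4 and Cngb1. Each of these neurons usually expresses a single receptor gene, and transcripts of some receptors have also been described in other organs at low levels. Many receptors are near copies of their neighbours in the genome, so the probe of one may also bind the transcript of another.

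The study asked which genes respond to lavender oil (LO, from Lavandula angustifolia) taken by mouth. Male rats, 7 weeks old, received LO at 5 mg/kg in 10% ethanol by gavage, or the 10% ethanol alone as control, once a day for 13 days, with 6 rats per group; the control rats thus shared the ethanol and the gavage. The labels name the strain both as Wistar and as F334, while the study's methods name Fischer (F334) rats. RNA was pooled by group for small intestine, spleen and liver, the liver as 2 pools (liver pool 1 and liver pool 2) whose make-up is not given in the sources used here. Each pool of control RNA was hybridised with its LO counterpart on 2 arrays with the dyes swapped, array 1 with LO in Cy5 and array 2 with LO in Cy3, which gave 8 arrays and 16 channels. The 2 arrays of a pair repeat the same RNA and counted as 1 replicate, and rats were not measured singly. Each tissue lay on its own slide, so tissue and slide cannot be told apart. The tissue labels were borne out by marker genes: the summed signal of 2 spleen markers, Cd79b and Cd37, ran from 18631 to 23604 in spleen and from 62.5 to 309 elsewhere, and that of 2 enterocyte markers, Fabp2 and Alpi, from 148203 to 240773 in small intestine and from 9.97 to 430 elsewhere. The summed signal of 8 liver probes (Alb, Apoa1, Apoc3, Ttr, Serpina1) was 1197750 to 1863270 in liver and 764 to 1623 in spleen, and it was 161939 to 207796 in small intestine, where Apoa1 and Apoc3 are also strong.

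Most olfactory receptor probes gave no signal that the scanner software separated from background. A probe is called detected in a channel where the software marked it as well above background. Of the 261 probes, 136 (52.1%) were detected in none of the 16 channels, against 18.2% of all non-control features. A further 28 were detected in 1 channel, 36 in 2 to 3, 30 in 4 to 8, 17 in 9 to 15, and 14 (5.36%) in all 16, against 36.7% of all features. The 840 other olfactory receptor features on the array were spread in nearly the same way, with 52.3% in no channel and 5.71% in all 16. These shares describe 8 arrays; features on an array are not replicates and were not tested against each other. In these bulk RNA pools, few cells with a receptor transcript and little transcript per cell cannot be told apart.

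The number of detected receptor probes changed with the array and with the dye. In small intestine array 1 gave 67 in Cy3 and 68 in Cy5, and array 2, with the same RNA, 35 and 42. The spleen arrays gave 39 and 55, then 34 and 36. Those of liver pool 1 gave 18 and 40, then 21 and 43, and those of pool 2 gave 35 and 80, then 31 and 80. Cy5 thus gave more detected probes than Cy3 on all 8 arrays, whichever RNA it carried. Over the 16 channels the detected share ran from 6.90% to 30.7% for the 261 probes, from 8.57% to 31.9% for the other olfactory receptors, from 45.2% to 68.9% for all non-control features and from 0% to 1.96% for the 153 negative control features.

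**Figure D1:**
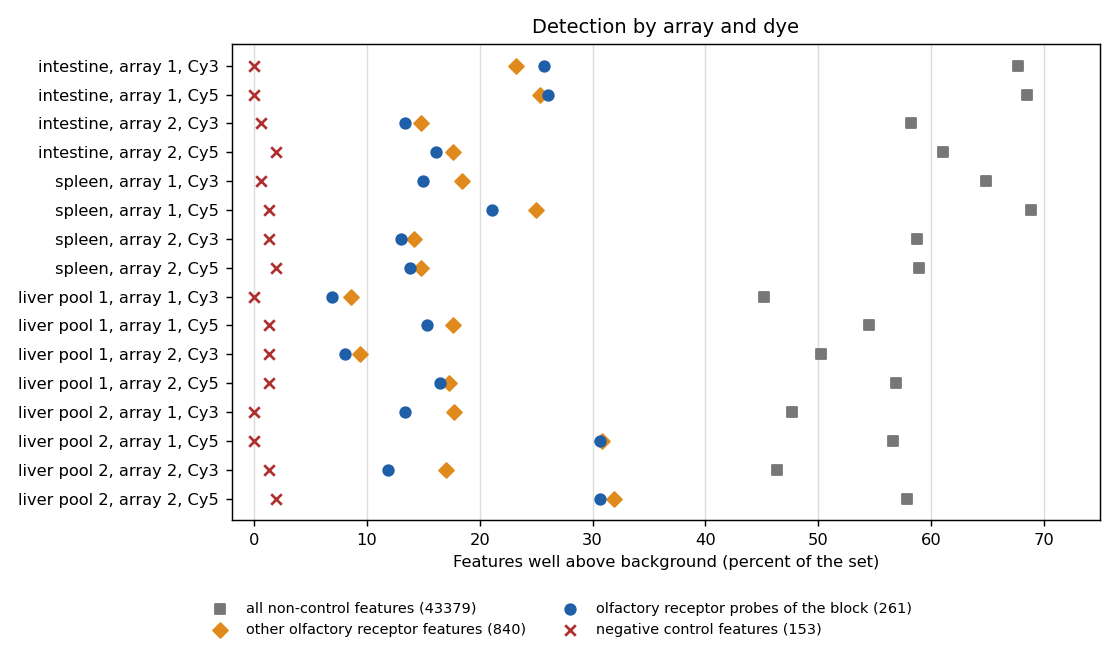
Share of features detected (horizontal axis, percent of each set) in each of the 16 channels (vertical axis: array and dye), for the 261 receptor probes, the 840 other olfactory receptor features, all 43379 non-control features and the 153 negative control features. The receptor probes lie between 6.90% and 30.7%, close to the other olfactory receptors and below all features in every channel.

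The signals themselves were low. The median processed signal of the 261 probes was between 5.00 and 12.6 in the 16 channels, where the negative controls had medians of 3.17 to 8.07 and all non-control features 35.5 to 65.3. The 90th percentile of the receptor probes ran from 25.8 to 80.6. Among probes never detected, the highest signal was 29.2 in small intestine, 33.2 in spleen and 44.5 in liver.

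A total of 33 receptor probes (12.6%) were detected throughout at least 1 tissue, that is in all of its channels, against 64.0% of all features and 14.3% of the other olfactory receptors. Of these 33, 14 met this in all 3 tissues, 11 in small intestine and spleen, 4 in small intestine alone, 3 in spleen alone and 1 in liver alone. By tissue the counts were 29 in small intestine, 28 in spleen and 15 in liver, against 56.3%, 56.1% and 40.5% of all features. Liver had to be met in 8 channels, small intestine and spleen in 4 each. In all 4 channels of a single liver pool, 15 were detected in pool 1 and 27 in pool 2. The 11 were Or13a23, Or1e27, Or1f20, Or1x2c, Or2ab1, Or2n1l, Or2t44b, Or6z5, Or7g30, Or8s8 and Or9s14. Those of small intestine alone were Or2a7, Or2n1i, Or9e1 and the probe for NM_001000708, which has no current symbol; those of spleen alone were Or52n1b, Or8b42 and Or8b57. Liver alone gave Or9s13. Alone here refers to detection in every channel of a tissue. Each of the probes of small intestine alone and of spleen alone was also detected in some channels of both other tissues. The probe with no current symbol was detected in 3 of 4 spleen and 7 of 8 liver channels, and Or52n1b in 3 of 4 small intestine and 6 of 8 liver channels. Or9s13 was detected in no channel of small intestine or spleen.

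The probes detected throughout a tissue were also counted by receptor family, with no test. In family 2 it was 8 of 30 probes and in family 13 it was 3 of 9, whereas in family 7 it was 2 of 33, in family 10 it was 0 of 11 and in family 8 it was 4 of 39. Family 9 had 3 of 6 (Or9s13, Or9s14 and Or9e1). Class I receptors, which resemble the receptors of fish, were detected in 2 of 14 cases (14.3%) and class II receptors in 29 of 233 (12.4%).

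The 14 probes detected in all 16 channels belonged to Or2t45, Or2av9, Or2a57, Or5h17b, Or51a25, Or4c122, Or6al2, Or8g36c, Olr1523, Or5h26, Or11h4c, Or7g32, Or13n4b and Or13c7e. Or1e27 and Or13a23 followed with 15 channels each, and Or1e27, the brighter by mean log2 signal, was taken as the last of 15 named probes. The 14 came from 9 numbered families and 8 chromosomes, and Or51a25 was the class I receptor among them. In the gene order of the current rat genome, 12 of the 14 had at least 2 other olfactory receptor genes among their 4 nearest neighbours, as is usual for this clustered family. Or6al2 and Or2a57 had 1 each, and Or6al2 lay beside Nlrp12.

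Or2t45 (array symbol Olr1455, probe A_44_P540755) had processed signals of 125 to 140 in the 4 small intestine channels and 103 to 121 in the 4 spleen channels. In the 8 liver channels its signals ran from 203 over a median of 338 to 457, with no overlap with the other tissues. Or2av9 (Olr1415) had 76.1 to 111 in small intestine, a median of 93.9 in spleen and 131 to 662 in liver, where the lower 4 values were those of pool 1 (131 to 217) and the upper 4 those of pool 2 (480 to 662). Or7g32 (Olr1148) gave 30.9 to 51.8 in small intestine, 48.6 to 72.1 in spleen and 131 to 302 in liver. Or8g36c (Olr1303) gave 45.5 to 68.5, 65.2 to 86.5 and 94.8 to 373 in the same order of tissues. Or6al2 (Olr386) was dimmer in liver on this scale, with 149 to 161 in small intestine, 135 to 168 in spleen and 52.8 to 142 in liver, where liver and spleen overlapped. Or5h26 (Olr1535) and Or11h4c (Olr1631) overlapped across all 3 tissues, at 73.7 to 134 and 74.1 to 135.

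Some signals differed between the 2 small intestine arrays, most of all that of Olr1523 (probe A_44_P332515). In small intestine it had 1593 (control) and 1196 (LO) on array 1, and 44.0 (LO) and 29.8 (control) on array 2, which carried the same RNA. In spleen it had 60.5 to 92.0 and in liver 85.8 to 122. Its high small intestine signal was thus present on 1 of 2 arrays of the same extracts. Among the other probes detected in all 16 channels, Or51a25 had 221 and 220 on array 1 against 45.1 and 54.7 on array 2, and Or4c122 had 213 and 202 against 79.3 and 87.6. Or8b42 had 327 and 331 on array 1 against 15.6 and 34.8 on array 2. The mean log2 signal of 11 receptor probes was over 2 higher on array 1 than on array 2 of the small intestine, and that of 0 was over 2 lower; among all features these shares were 1.01% and 0.413%. On the spleen pair the counts were 2 and 2, on liver pool 1 they were 2 and 2, and on liver pool 2 they were 1 and 1.

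**Figure D2:**
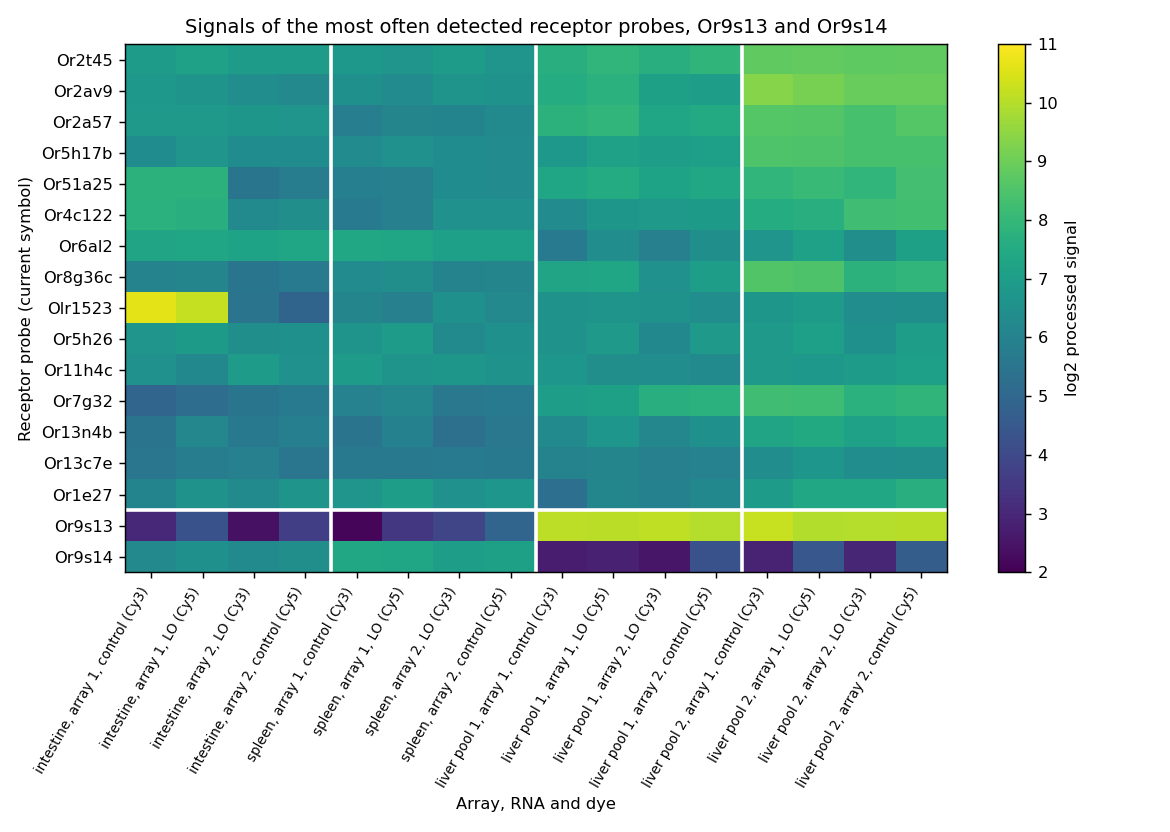
Heat map of log2 processed signals (colour) for 15 receptor probes (the 14 detected in all channels and Or1e27), with Or9s13 and Or9s14 below the line (vertical axis), in each of the 16 channels (horizontal axis: array, RNA and dye). Or9s13 is at 993 to 1205 in the 8 liver channels and at 4.37 to 30.9 in the others, Or9s14 has the reverse pattern, and Olr1523 is high on small intestine array 1 alone.

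Or9s13 (array symbol Olr1353, probe A_44_P351252, NM_001000750) was the receptor probe with a strong signal in liver. It is described because of that signal, so it was chosen after its values were seen. Its liver signals were 1105 (control) and 1061 (LO) on array 1 and 1127 (LO) and 1022 (control) on array 2 of pool 1. In pool 2 they were 1205 (control) and 993 (LO) on array 1 and 1013 (LO) and 1055 (control) on array 2. All 8 were detected and lay from the 87.5th to the 89.6th percentile of non-control features of their channel. The small intestine signals were 8.14 (control), 19.4 (LO), 5.31 (LO) and 12.6 (control), and the spleen signals 4.37 (control), 11.1 (LO), 14.7 (LO) and 30.9 (control), and none of these was detected. After normalization between arrays, liver was 70.5-fold higher than spleen and 70.4-fold higher than small intestine. For these folds the dim side was set at the lowest signal of a detected probe on the same array and channel. They are not strict lower bounds. The undetected 30.9 in spleen and 19.4 in small intestine lay above the lowest detected signals of their channels, 25.0 and 15.7. The measured log2 differences were 6.76 (SE 0.11, limma adjusted p = 2.6e-07) and 7.00 (SE 0.11, limma adjusted p = 2.7e-07). Or9s13 passed the filter on dim probes used in this fit (detected in a channel of 2 or more arrays) through liver alone. With no filter the limma adjusted p was 3.1e-07 for both differences. With control and LO averaged, which leaves 4 values, the adjusted p was 0.0031 for liver against spleen and 0.0030 for liver against small intestine. Because Or9s13 was chosen on its liver signal, these tissue p-values are no support for the pattern. Its small intestine and spleen sides were not detected, so the sizes of the measured differences are uncertain. The 2 liver pools differed by 0.14 on the log2 scale (limma adjusted p = 0.23).

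Its neighbour Or9s14 (Olr1352, probe A_44_P271526, NM_001000953) showed the reverse and was likewise chosen after its values were seen. The signals of Or9s14 were 75.7 (control), 92.0 (LO), 77.0 (LO) and 88.0 (control) in small intestine and 168 (control), 156 (LO), 131 (LO) and 139 (control) in spleen, each detected. In the 8 liver channels they ran from 5.84 over a median of 7.48 to 25.3, with none detected. With the dim side set in the same way, and so with no strict bound, spleen was 3.31-fold and small intestine 2.24-fold higher than liver. The measured log2 differences of liver from these tissues were -3.37 (SE 0.30, limma adjusted p = 0.00014) and -2.80 (SE 0.30, limma adjusted p = 0.00040). With no filter on dim probes the limma adjusted p was 0.00017 and 0.00047. With control and LO averaged it was 0.015 against spleen and 0.027 against small intestine. Or9s14 passed the filter through small intestine and spleen alone and was chosen on these values, so its p-values are no support either. Its liver side was not detected, so the sizes of these differences are uncertain too. Or9s13 and Or9s14 both lie on chromosome 9, in the order Or9s15, Or9s14b, Or9s14, Or9s13 and Cops9. The RefSeq model of Or9s13 holds 4 transcripts over 8762 bases, while that of Or9s14 holds 1 over 969 bases; the median receptor model of the block was 939 bases long, and 24 of 259 were longer than 2000 bases.

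The windows at the starts of both gene models are shown because the genes are adjacent copies whose probes differ in tissue. They are from RefSeq on build GRCr8, plus strand, 250 bases before to 50 after the annotated start, at chr9:100639358-100639657 for Or9s13 and chr9:100620568-100620867 for Or9s14. The bases in capitals are those that differ from the other window, or face a gap, in a global alignment.
Or9s13: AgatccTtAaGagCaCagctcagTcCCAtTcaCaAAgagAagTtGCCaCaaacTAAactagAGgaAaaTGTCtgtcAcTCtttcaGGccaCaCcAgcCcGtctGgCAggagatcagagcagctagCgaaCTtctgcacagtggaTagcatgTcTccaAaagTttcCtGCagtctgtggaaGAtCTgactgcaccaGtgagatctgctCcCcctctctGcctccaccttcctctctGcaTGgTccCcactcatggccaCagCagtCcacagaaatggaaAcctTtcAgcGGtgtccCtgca
Or9s14: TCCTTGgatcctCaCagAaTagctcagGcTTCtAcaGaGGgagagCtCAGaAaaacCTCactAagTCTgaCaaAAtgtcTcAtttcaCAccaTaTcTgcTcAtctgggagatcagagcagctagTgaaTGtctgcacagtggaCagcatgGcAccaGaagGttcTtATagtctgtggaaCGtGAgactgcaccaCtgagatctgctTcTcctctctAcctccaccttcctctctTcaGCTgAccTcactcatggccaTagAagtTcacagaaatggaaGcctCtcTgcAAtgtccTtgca
The alignment had 308 columns, of which 224 (72.7%) were identical and 16 were gaps, so most of the sequence before the start was shared. Both strands of the windows were searched for the letters TATAAA (a core promoter element), CAAAGTCCA (HNF4) and TTGCGCAA (C/EBP), the latter pair being sites of factors known from liver. None of them was present in either window, and their shares among the 33469 promoter windows of the same length were 14.2%, 0.391% and 0.170%. Among the 223 receptor probes of the block with such a window the shares were 36.8%, 0.448% and 0%. Such a search is of these letters in this window alone.

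**Figure D3:**
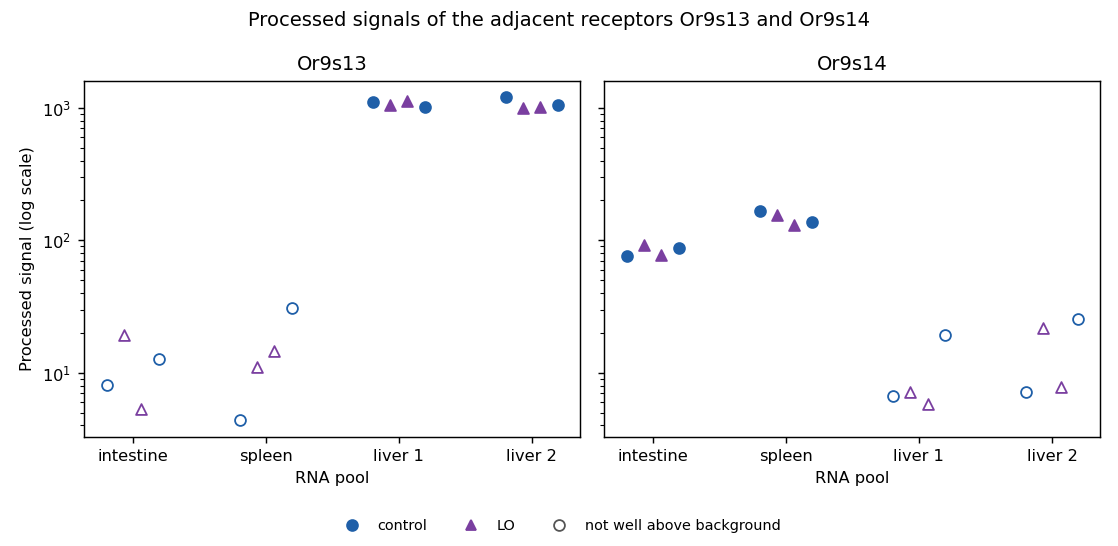
Processed signals (vertical axis, log scale) of Or9s13 (left) and Or9s14 (right) in the 4 channels of each RNA pool (horizontal axis); circles are control, triangles LO, and open symbols were not detected. Or9s13 sits between 993 and 1205 in liver and at most at 30.9 elsewhere, and Or9s14 between 75.7 and 168 in small intestine and spleen and at most at 25.3 in liver.

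Other receptors with a tissue pattern were dimmer. Or8g36b (Olr1305, probe A_44_P512896), the neighbour of Or8g36c, had 21.2 to 54.4 in liver, with 5 of 8 channels detected, 3.08 to 5.29 in small intestine and 3.58 to 6.58 in spleen, so that liver did not overlap the others. Its measured log2 difference of liver from spleen was 3.24 (SE 0.18, limma adjusted p = 2.2e-05), with the spleen side not detected. Or10aa3 (Olr1587) had 22.4 to 36.8 in spleen, with 3 of 4 channels detected, 4.41 to 6.98 in small intestine and 5.56 to 10.0 in liver, and the measured log2 difference of liver from spleen was -2.18 (SE 0.17, limma adjusted p = 7.8e-05), with the liver side not detected. Since a side that was not detected has no measured level, the sizes of both differences are uncertain. Both probes also passed the filter on dim probes only through the tissue where they were bright, so these p-values are no support for the pattern. Or7a35 (Olr1076) gave 87.4 to 171 in Cy5 and 11.0 to 15.5 in Cy3 on the 4 liver arrays, where each dye carried control RNA on 2 arrays and LO RNA on 2, so that its liver signal went with the dye. On all 4 liver arrays, 5 receptor probes were detected in Cy5 and not in Cy3 (Or7a35, Olr1471, Or1j22, Or8b42 and Or9e1) and 0 the other way, against 1.95% and 0.173% of all features. These were also chosen after their values were seen.

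Across all 261 probes with no filter, limma on log2 levels of the 8 RNA pools called 41 higher and 10 lower in liver than in spleen, where 26% and 30.5% of all 40979 probes were called. Liver against small intestine gave 34 higher and 15 lower (background 25.3% and 26.7%), and small intestine against spleen 10 higher and 3 lower (background 17.7% and 22.9%). The median log2 differences of the 261 probes were 0.22, 0.19 and 0.01, those of all probes 0.04, 0.07 and -0.04. As a share, 51 of 261 were called between liver and spleen. A filter on dim probes, which kept probes detected in a channel of 2 or more arrays, left 90 members. Of these, 36 were called higher and 5 lower in liver than in spleen (background 32% and 38.2% of 30620), 31 higher and 7 lower in liver than in small intestine (31% and 33.8%), and 3 higher and 1 lower in small intestine than in spleen (22.8% and 29.4%). A probe could pass the filter through the tissue in which it was bright, so the 90 do not stand for all members. The 3 higher in small intestine were Olr1523, Or52h2 and Or7a35, and the 1 lower was Or10aa3. Or7a35 had 19.3 and 37.1 on array 1 of small intestine and 5.49 and 6.36 on array 2, with 1 of 4 channels detected. Without array 1 of each pair, 1 of the 90 was called higher in small intestine than in spleen, against 19.6% of all probes.

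Control and LO RNA of a pool shared arrays, which makes these p-values too small. With the pair averaged, 10 of 90 were higher and 3 lower in liver than in spleen (13.4% and 17.7% of all probes), 7 and 1 in liver than in small intestine (9.32% and 10.8%), and 0 were called between small intestine and spleen (5.74% and 4.32%). The scaling between arrays also mattered. Without it the median of all 30620 probes was -0.68 for liver minus spleen and -0.45 for liver minus small intestine, against -0.10 and -0.02 with it. Among the 14 probes detected in all channels, 13 were called higher and 0 lower in liver than in spleen with the scaling. Of all 30620 probes 32.0% were called higher and 38.2% lower there. Without the scaling, 9 of the 14 were higher and 1 lower, against 21.7% and 52.6% of all probes. The log2 difference of Or6al2 changed sign, from 0.10 (adjusted p = 0.77) to -0.73 (adjusted p = 0.049), and that of Or11h4c from 0.75 (adjusted p = 0.016) to -0.06 (adjusted p = 0.79). Or2t45 kept its direction, at 2.34 (SE 0.41, adjusted p = 0.0031) with and 1.52 (adjusted p = 0.010) without the scaling. With the pair averaged, 3 of the 14 were called between liver and spleen (Or2a57, Or51a25 and Or7g32), and the adjusted p of Or2t45 was 0.054 against spleen and 0.10 against small intestine. The small intestine calls of Olr1523 rested on array 1: small intestine minus spleen was 1.80 (SE 0.11, limma adjusted p = 5.1e-05) on the log2 scale and -0.93 without array 1.

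More receptor probes were higher than lower in liver pool 2 against liver pool 1. This comparison was added after the data were seen. Of all 261 probes, 105 were called higher and 12 lower in liver pool 2 than in liver pool 1, where 21.2% and 24.5% of all 40979 probes were called. The median log2 difference of the 261 was 0.38, against -0.04 over all probes. Among the 840 other olfactory receptor probes, 39.9% were higher and 4.40% lower. Past the filter, 67 of the 90 were higher and 3 lower (background 26.6% and 32.2%), with a median of 1.08 against -0.06. When the filter read the small intestine and spleen arrays alone, 56 members were tested and 46 were higher (26.5% of all probes). The 3 lower were Or52e51, Or7g23 and Or1f19e. Or5w13 (Olr583) had 7.69 to 13.8 in pool 1 and 56.5 to 80.6 in pool 2, and 4.90 to 8.17 in the other tissues. It was detected in all 4 channels of pool 2 and in none of pool 1, with a measured log2 difference of 3.10 (SE 0.07). With the pool 1 side set at the lowest signal of a detected probe, which is not a strict bound, pool 2 was 2.56-fold higher. Or5w13 passed the filter on dim probes through pool 2 alone, so no p-value is given for it. Each pool lay on its own pair of arrays, so pool and array cannot be told apart, and n was 2 values on each side, control and LO. Since these share arrays, the p-values of this comparison are too small, and with control and LO averaged each side holds 1 value and no test is left.

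**Figure D4:**
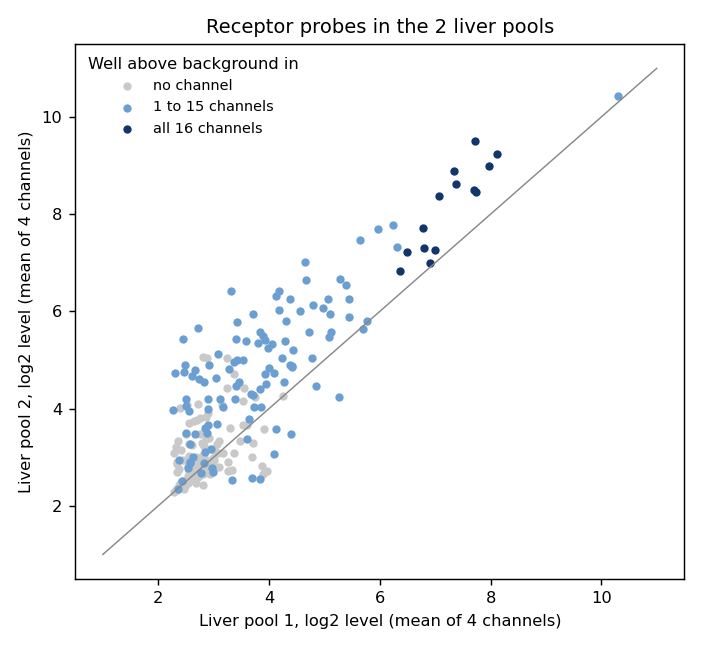
Log2 level after scaling between arrays of each of the 261 receptor probes in liver pool 1 (horizontal axis) and liver pool 2 (vertical axis), each the mean of 4 channels, with the line of equality and colours for the number of channels detected. Of the 125 probes detected in at least 1 channel 111 lie above the line, and Or9s13, the point at the upper right, lies close to it. A probe could enter the 125 through pool 2 alone, as Or5w13 did, so the 125 do not stand for all members. Of all 261, limma called 105 higher and 12 lower in pool 2, where 21.2% and 24.5% of all probes were called.

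LO was then compared with control. No receptor probe was called in any tissue: limma on log2 LO/control, with the 2 arrays of a pair averaged, called 0 of 30620 probes in small intestine, 0 in spleen and 0 in liver (background 0%), and so 0 of the 90 members tested. At an unadjusted p under 0.05 it listed 6, 5 and 7 of the 90 members and 1207, 1303 and 1779 of all probes. The spread came from the 2 liver pools, and the lone pools of small intestine and spleen were assumed to vary like them. Across all 261 probes the median log2 LO/control was 0 in each tissue, since many ratios were set to exactly 1 by the software where the signal was too low, for 84 to 143 members on each array.

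Detection was also counted by treatment. In small intestine 36 receptor probes were detected in control RNA on both arrays and 31 in LO RNA, with 29 in common, where 59.6% and 57.3% of all features were detected. In spleen it was 31 and 31, with 28 in common (58.0% and 57.9% of all features). In liver pool 1 it was 16 and 19, with 15 in common (44.0% and 47.8%), and in liver pool 2 it was 35 and 30, with 27 in common (45.9% and 45.1%). These counts were not tested.

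For the 15 named probes the log2 LO/control was between -0.14 (Or51a25) and 0.32 (Or13c7e) in small intestine, between -0.06 (Or2av9) and 0.11 (Or5h17b) in spleen and between -0.21 (Or5h26) and 0.19 (Or1e27) in liver, with limma adjusted p of 0.83 or more. Or9s13 in liver had -0.06 and 0.14 on the arrays of pool 1 and -0.28 and -0.06 on those of pool 2. The smallest p among members whose sign was the same on all arrays of a tissue belonged to Or1ak2 (Olr419) in small intestine, with 2.31 and 0.54 on its arrays, a mean of 1.43 (SE 0.07) and an adjusted p of 1; it was detected in 1 of 4 small intestine channels, so the size of the ratio is uncertain. Or1f19e followed with 0.71 and 0.34, and was detected in 0 of 4 small intestine channels. The lowest p of those lower in small intestine were Or51a25 (-0.01 and -0.28) and Or4c122 (-0.08 and -0.14). In spleen, Or7d12 (0.71 and 0.08) and Or1e16d (0.47 and 0.12) were the higher ones and Or10aa3 (-0.14 and -0.57) and Or2n1i (-0.14 and -0.56) the lower ones, all with an adjusted p of 1. In liver no tested member was higher with LO on all 4 arrays, and 1 was lower, Or5w13, with -0.84, -0.10, -0.44 and -0.30 (mean -0.42, SE 0.06, adjusted p = 0.83), in a pool 1 signal that was not detected. Between tissues, the LO effect differed for 0 of the 90 members by limma contrasts, with 10 (liver against spleen), 9 (liver against small intestine) and 5 (small intestine against spleen) at an unadjusted p under 0.05, where 4.75%, 4.50% and 3.63% of all 30620 probes were.

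The study selected genes by ratio, LO over control at 1.5 or more where LO was in Cy5 together with Cy5 over Cy3 at 0.75 or less where LO was in Cy3, and the opposite for lower genes. Its methods also state a threshold of 0.01 for the software's P. The ratio cut-offs without that threshold were counted first. By these cut-offs 7 receptor probes were higher with LO in small intestine (2.68%), where 0.36% of all features were, and 1 was lower (background 0.353%). Among the other olfactory receptor features 0.595% were higher and 0.238% lower there. In spleen 0 were higher (0.399%) and 1 was lower (0.152%). Liver pool 1 gave 1 higher (0.408%) and 0 lower (0.401%), and liver pool 2 gave 0 higher (0.51%) and 0 lower (0.743%). None of these 10 probes was detected on both arrays of its pool, and none had a P below 0.01 on both. Among all features detected in no channel of the small intestine, 0.972% passed as higher, and 6 of the 7 receptors were among such features.

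Of the 10, 9 stand in the gene lists that the study chose on these same arrays, 8 for small intestine and 1 for spleen, and 7 of the 9 were detected in none of the 16 channels. Their signals in the tissue of the list were between 3.19 and 29.8. Or8k16b (Olr490) had 3.36 in control and 7.70 in LO on array 1 of small intestine, and 7.88 in control and 26.3 in LO on array 2. Or1ak2 had 3.80 and 18.8 on array 1 and 20.4 and 29.8 on array 2, of which 1 channel was detected. Or6c207 (Olr996) had 3.75 and 13.6, then 19.6 and 29.2. In each of them LO was the higher channel on both arrays. The 99th percentile of the negative controls was 4.76 in Cy3 (control) and 8.99 in Cy5 (LO) on array 1. On array 2 it was 14.9 in Cy3 (LO) and 27.2 in Cy5 (control). The control signals of these probes lay below that of their channel on both arrays, as did the LO signal of Or8k16b on array 1. Their other LO signals lay above it. Or10n1, Or2q1, Or4x5 and Or5h26b had 7.28 to 11.3 in LO and 3.19 to 5.83 in control on array 1, and 7.43 to 14.6 and 5.22 to 5.57 on array 2. Or1j21 (Olr410), the lower one, had 11.1 in control and 8.21 in LO on array 1 and 7.01 and 4.40 on array 2. Olr36 in spleen had 11.0 and 6.69, then 11.9 and 5.45. The software's P for the 18 ratios ran from 0.0143 to 0.751, so none was below the 0.01 that the study's methods state. The probe outside the lists was Or8b45 (Olr1244) in liver pool 1, never detected and named after its values were seen.

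The dye-swapped arrays of a pair disagreed more than they agreed for these receptors. In small intestine 41 of the 261 had LO/control in the same direction on both arrays and 103 in opposite directions, with the rest at exactly 1 on an array. In spleen it was 26 and 99, in liver pool 1 it was 8 and 94, and in liver pool 2 it was 25 and 131. Across the 261 probes, which share arrays and dyes, r between array 1 and array 2 was -0.49 for small intestine, -0.53 for spleen, -0.75 for liver pool 1 and -0.73 for liver pool 2, and over all features -0.57, -0.55, -0.72 and -0.70. A ratio that followed the dye has opposite signs on the 2 arrays once it is turned to LO over control. Cy5 was the brighter channel on both arrays for 47 receptor probes in small intestine, 44 in spleen, and 58 and 90 in the first and second liver pool, and Cy3 for 56, 55, 36 and 41.

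**Figure D5:**
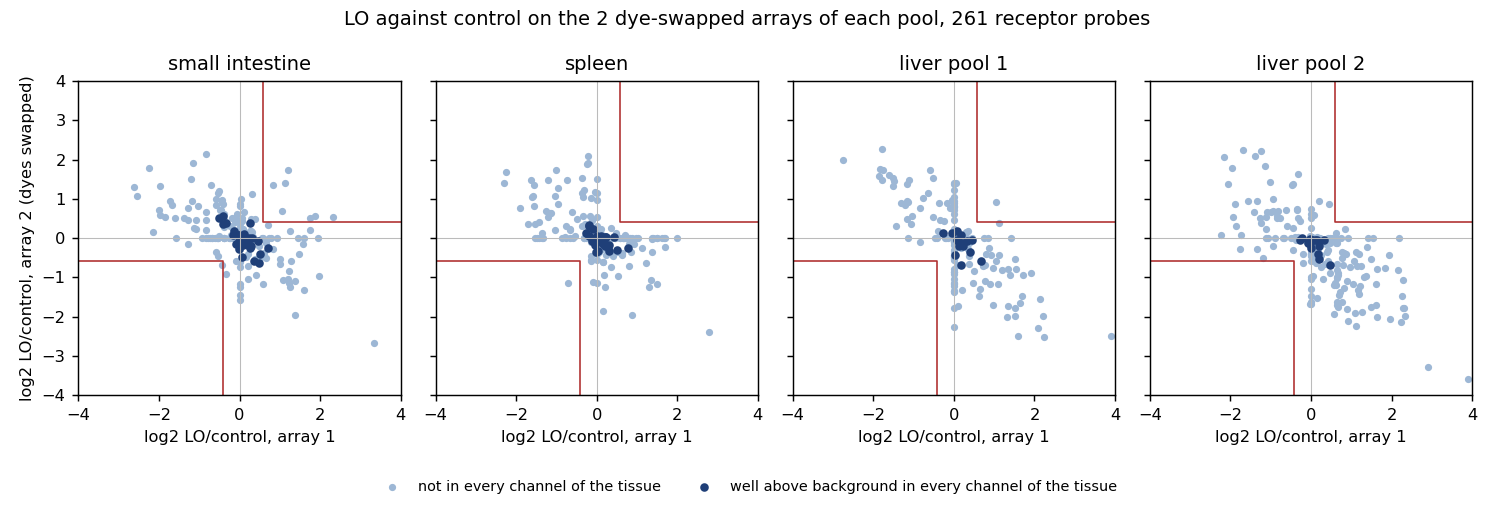
Log2 LO/control of the 261 receptor probes on array 1 (horizontal axis) and on the dye-swapped array 2 (vertical axis) of each pool; dark points were detected in every channel of the tissue, and red lines bound the study's cut-offs. Dark points lie within 0.78 of 0 on both axes, and the 10 probes past the cut-offs are pale.

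The genes that carry the olfactory signal were mostly dim or had no matched probe. Of 22 genes of olfactory transduction, receptor export and olfactory neuron identity, 11 were matched, by 16 probes, of which 5 were never detected and 5 were in all 16 channels. Omp, the marker protein of mature olfactory neurons, had 5.45 to 12.1 in small intestine, 8.42 to 14.7 in spleen and 5.87 to 10.5 in liver. The channel subunits Cnga2, Cnga4 and Cngb1 lay between 3.32 and 15.5 in the 16 channels, with none detected. Adcy3 had 55.2 to 79.4 in spleen, in 4 of 4 channels, 12.8 to 25.4 in small intestine and 6.00 to 41.6 in liver. Ric8b, a chaperone for the G protein subunit, was detected in 1 channel, and the receptor kinase gene Grk3 in 4. Ebf1, a transcription factor of olfactory neurons and of B cells, had 1252 to 1757 in spleen, 63.3 to 71.8 in small intestine and 7.29 to 41.5 in liver. The 5 probes in all 16 channels were those of Gnb1, a G protein subunit found in most cells. Pde4a was detected in 10 channels, and the probes of Pde1c in 3 and 0. Of the olfactory neuron markers, 4 of 8 were matched, and their summed signal was 28.5 to 56.3 in small intestine, 79.4 to 112 in spleen and 25.4 to 69.5 in liver. LO against control called 0 of the 10 probes tested, with an adjusted p of 0.83 or more.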

How the data were processed

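The array was an Agilent 2-colour rat whole-genome design, with files scanned and extracted by the authors with Agilent Feature Extraction 11.0.1.1 and a header that names build rn4. The deposited files hold, per feature, intensity (processed, median and background signals, already background-subtracted and dye-normalized where processed), the log10 ratio of Cy5 over Cy3, its p-value and detection flags; the deposited series matrix holds log10 ratios, by comparison with the scanner files. These ratios were rewritten on the log2 scale, as LO over control. Control features and 34 non-uniform features were left out, copies of a probe averaged, and limma 3.58.1 in R 4.3.3 fitted to log2 LO/control, 1 value a pool, and to log2 processed signals after Aquantile scaling with tissue and treatment as terms (Benjamini-Hochberg over all probes, 0.05). Both fits were tested on simulated data. Alternatives changed the background correction, scaling, filters, flags, copies, ratios of exactly 1 and arrays. Named probes were the 15 detected in the most channels among those detected throughout a tissue (ties by mean log2 signal), the members in the study's lists, 2 per direction and tissue by the LO p-value, and 22 transduction genes; other probes are marked as chosen on their values. Members and lists were chosen with earlier results of these data known. Replicate numbers mark the dye orientation, so averaging a pair removes them; deviations of same-numbered arrays correlated at 0.63. Depth has no counterpart on arrays; their number limits the precision. P-values of the LO fit measure the spread between the 2 liver pools. Those of the tissue fit also rest on how the difference of control and LO on shared arrays varied between pools. Those of the comparison of the liver pools rest on the latter alone and measure no spread between pools of a kind. Probe sequences were not used here, and coordinates are those of the RefSeq promoter windows.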

Additional observations from a re-analysis of the deposited data

Results flagged for a closer look

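Among 34 sets of 4 liver arrays read for a value that stood apart from the others, 1 was found: the log2 LO/control of Or10aa3 on array 2 of liver pool 2 was 0.732, while the other 3 arrays gave a ratio of exactly 1. About 1 set in 20 is expected to show this by chance. The probe was well above background in 0 of 8 liver channels, with signals of 5.56 to 10.0.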

How the results depend on the processing

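Detection moved with the flag. With the software's weaker flag (positive and significant against background) 91 receptor probes were detected throughout small intestine, 86 throughout spleen, 39 throughout liver and 32 on all 8 arrays, in place of 29, 28, 15 and 14. With 1 array of each pair left out, the small intestine count was 31 to 53.

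The cut-off counts of 8, 1, 1 and 0 (small intestine, spleen, liver pools 1 and 2) were 0 in each pool with P below 0.01, with a detection filter and with normexp background correction, and 4 in small intestine with symmetric cut-offs. On 1 array alone they were 81 to 90, 54 to 78, 69 to 92 and 102 to 112. Shares over all features for 1 array alone are not given here, so these counts say nothing particular to the receptors.

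For LO, the 8 arrays fitted with the replicate number as a block gave 0 receptor probes in every tissue, as they did without the block. Normexp called 1 member, Or1j22 in small intestine (log2 LO/control 0.37, limma adjusted p = 0.037). Of all 30620 probes it called 32 in small intestine, 105 in spleen and 150 in liver. The deposited log2 LO/control of Or1j22 was 3.33 on array 1 and -2.67 on array 2 of small intestine, so it went with the dye. Normexp also turned the sign of Or1f19e (-0.0081) and Or51a25 (0.0434) in small intestine and of Or1e16d (-0.0490) in spleen. The median log2 LO/control of 0 became 0.0318, 0.0401 and -0.0192 (small intestine, spleen, liver) past the filter on dim probes, 0.000951, 0.016 and -0.00525 with normexp, and 0.117, -0.111 and 0.0118 with the series matrix values.

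Between tissues, 41 (liver against spleen), 38 (liver against small intestine) and 4 (small intestine against spleen) were called. With control channels alone these were 19, 8 and 0, with control and LO averaged 13, 8 and 0, without liver pool 1 76, 75 and 40, and without liver pool 2 67, 66 and 42, where leaving out a pool also takes the difference between the pools out of the spread and 33.9% to 46.5% of all probes were called in each direction. The averaged fit, the fits without a liver pool, the comparison of the liver pools and the series matrix medians were chosen after seeing the data. With no filter, small intestine against spleen gave 13, and with 1 array of each pair left out 3 to 11. Of all probes, 17.7% were higher and 22.9% lower with no filter. With 1 array of each pair left out it was 19.6% to 20.8% higher and 24.3% to 26.3% lower. Without array 1, Olr1523 turned sign for liver minus small intestine (1.66, against -0.63 with both arrays) and small intestine minus spleen (-0.933); without array 2 these were -2.93 and 4.53. The 67 probes higher in liver pool 2 were 105 with no filter and 40 to 47 with 1 array of each pair left out. Of all probes, 26.6%, 21.2% and 12.1% to 18.4% were higher in these settings.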
